A study of Mus musculus with 30 samples.

Results

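Inhibition in the hippocampus depends on a small set of genes that make, load, clear and break down GABA, and on the interneurons that express them. Described here are 8 such genes, listed by symbol and found by Ensembl identifier, among the 21412 genes with deposited values. They are Gad1, Gad2, Slc32a1, Slc6a11, Abat, Pvalb, Lhx6 and Dlx1, and all 8 were found and passed the filter on low counts in every comparison. They were chosen by their function and by their levels in HD against Ctr mice, with results of these same libraries already known, so every difference that contains the HD mice is given for them as a description, with no p. Where members past the call rule in such a contrast are counted, the count describes values they were chosen by and nothing is read from it. Other contrasts that contain the Ctr mice share values with this choice, and nothing is read from their p for members.

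The samples were hippocampi of male BALB/c mice, an inbred strain, that arrived at 2 to 3 weeks of age, had 5 days of acclimatization and were then fed for 11 weeks. Ctr mice received feed without added mercury. LD mice received 0.28 mg and HD mice 5 mg of methylmercury (MeHg) per kg of feed, and MeHg is an organic form of mercury that enters the brain. Se_Ctr, Se_LD and Se_HD mice were given selenium, the series title naming selenium-methionine, with no mercury, the low dose or the high dose. The dose of selenium is not given in the sources used here, and the feed levels and time above are those stated for the groups without selenium. Each group had 5 mice and each mouse gave 1 library, so the 30 libraries are separate animals. Values are normalized counts, which are reads per gene divided by a factor that sets the libraries to a common depth. A difference between groups is given as a log2 fold change (log2FC) of normalized count + 1 with its standard error (SE). A gene was called when limma gave an unadjusted p under 0.05 both in the F test of the 3 groups of a diet and in the contrast, or, across the diets, in the contrast. Reads on genes were between 5768208 and 11510521 per library, and the fewest reads behind a single value of a member were 72, for Lhx6. The tissue label was held against 11 markers of hippocampal subfields, of which 10 had reads in every library and Pou3f1 had none in 12 libraries. The summed count of 8 thalamus markers was above 1300 in 7 libraries (Ctr 1, LD 8 and 26, HD 9, Se_Ctr 10, Se_LD 11 and 29) and between 659 and 1134 in the others, and results that rest on these libraries are given with and without them.

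GABA is made from glutamate by glutamate decarboxylase, of which Gad1 and Gad2 encode the constitutively active and the more readily inactivated form. Slc32a1 encodes the transporter that loads GABA into synaptic vesicles, Slc6a11 a GABA transporter found mostly on astrocytes, and Abat the mitochondrial transaminase that breaks GABA down. Parvalbumin, encoded by Pvalb, is a calcium-binding protein of fast-spiking basket and axo-axonic cells, while Lhx6 and Dlx1 encode homeodomain transcription factors of the interneuron lineage. In RNA of a whole tissue, fewer cells of a type and less RNA per cell cannot be told apart.

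The sequences before the starts of 3 of these genes are shown because Gad1, Gad2 and Slc32a1 are used by the same neurons, to make GABA and to load it into vesicles. RefSeq start sites (build GRCm38.p6) were given for 7 of the 8 genes, in 10 windows, and the 250 bases before each start were each found once in NCBIM37, the build of the deposited counts. Positions here are those of NCBIM37, on the plus strand. The Gad2 and Slc32a1 stretches end where the annotated gene begins. The Gad1 stretch ends at an exon that starts annotated Gad1 transcripts, while another annotated transcript starts farther upstream, so that this stretch lies in its first intron. Capitals mark a motif. The Gad1 stretch is chr2:70399936-70400098, the Gad2 stretch chr2:22477597-22477724 and the Slc32a1 stretch chr2:158436244-158436493.
Gad1: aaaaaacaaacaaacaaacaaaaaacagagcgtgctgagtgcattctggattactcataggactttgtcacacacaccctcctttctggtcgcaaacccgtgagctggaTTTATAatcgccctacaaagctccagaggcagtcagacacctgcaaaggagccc
Gad2: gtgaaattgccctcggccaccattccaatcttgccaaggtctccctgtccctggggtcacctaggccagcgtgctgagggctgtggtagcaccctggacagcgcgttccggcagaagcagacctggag
Slc32a1: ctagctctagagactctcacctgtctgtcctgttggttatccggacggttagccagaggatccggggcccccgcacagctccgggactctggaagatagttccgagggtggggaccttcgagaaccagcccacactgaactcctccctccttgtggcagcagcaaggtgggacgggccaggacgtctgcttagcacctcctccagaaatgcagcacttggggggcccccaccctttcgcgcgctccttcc
The capitals in the Gad1 stretch are a TATA box, TATAAA on the other strand, whose last base lies 49 bases before that exon. Of 32851 windows of 250 bases, 12.4% hold these letters on either strand. The other motifs searched on both strands were TAATTA (homeodomain core, in 4.84% of windows), TGACGTCA (cAMP response element, 1.55%), GGGCGG (GC box, 32.7%), CACGTG (E-box, 6.02%) and TGACNNNGC (antioxidant response element, 10.2%). Beyond the printed stretches, within the exons that follow them, the Gad1 window held a GC box and the Gad2 window the antioxidant response element letters. The Slc32a1 window held none of the 6 motifs. A match of letters is a description and not a site of binding.

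Gad1 (ENSMUSG00000070880, chromosome 2 from 70391129 to 70440071 in NCBIM37) had its lowest level in HD mice. In Ctr mice its normalized counts were 2955, 2610, 2498, 2754 and 2923, in library order. In HD mice they were 1848, 2005, 1888, 2018 and 2269. No HD mouse reached the lowest Ctr mouse, with a log2FC of -0.45 (SE 0.097), and across all genes tested 0.734% had HD wholly below Ctr mice. The LD mice had 2518, 2494, 2674, 1978 and 2592 and overlapped both groups, with library 20 in the range of the HD mice and the other 4 in or next to that of the Ctr mice.

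With selenium the high dose was not accompanied by a lower Gad1. Se_Ctr mice had 2346, 2635, 2925, 2808 and 2455 normalized counts, and Se_HD mice 2619, 2618, 3050, 2433 and 2745. These ranges overlapped almost completely, and the log2FC of Se_HD from Se_Ctr mice was 0.03, with a 95% confidence interval from -0.12 to 0.18 in limma. These 10 mice are not the HD and Ctr mice by whose levels Gad1 was chosen, though results of these same libraries were already known. The difference between the effect of the high dose with selenium and that without was 0.49 on the log2 scale (SE 0.118), which contains the HD and Ctr mice and is given as a description.

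Set directly beside the HD mice, all 5 Se_HD mice had more Gad1 than any HD mouse. The log2FC was 0.42 (SE 0.083), a description, since the low values of the HD mice were known when Gad1 was listed. All 5 mice above all 5 was found for 0.594% of genes. Leaving out a single mouse moved the fold change between 0.38 and 0.47. Between HD and LD mice the log2FC of Gad1 was -0.28 (SE 0.097), likewise a description.

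**Figure D1:**
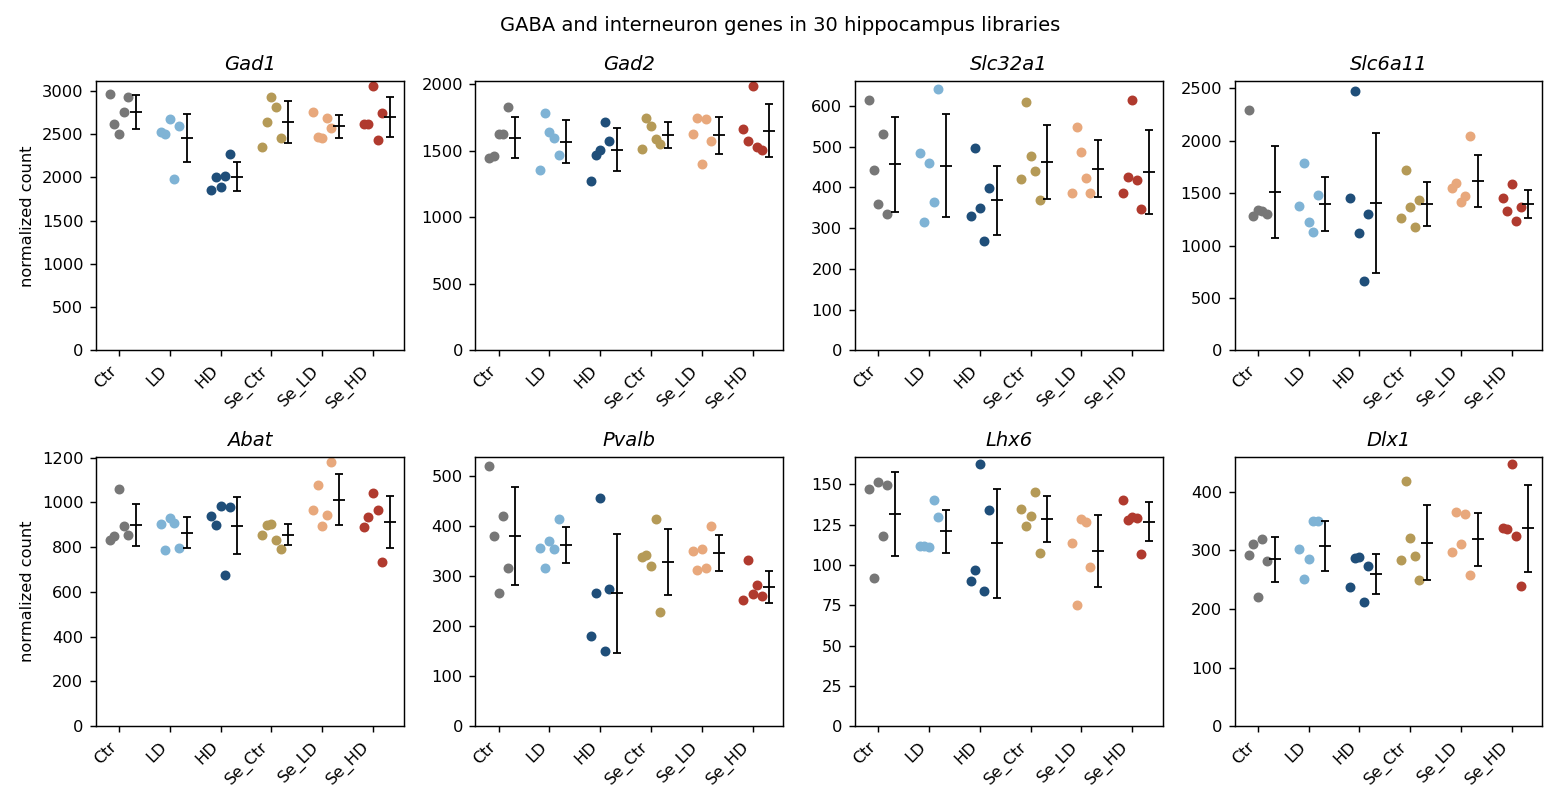
Normalized counts of the 8 genes (vertical axes, starting at 0) in each of the 30 libraries by group (horizontal axes), where points are mice and the black mark and bar are the mean and SD of 5 mice. In the Gad1 panel the 5 HD mice lie between 1848 and 2269, below every Ctr and every Se_HD mouse, while in the Gad2 panel the 6 groups overlap.

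Gad2 (ENSMUSG00000026787, chromosome 2 from 22477725 to 22549394) did not separate the groups. Its counts were 1449, 1460, 1630, 1629 and 1831 in Ctr mice and 1276, 1471, 1504, 1719 and 1573 in HD mice. The group means lay between 1508 ± 161 (SD, n = 5) in HD and 1653 ± 198 (SD, n = 5) in Se_HD mice, and no neighbours in the order of the 6 means differed by more than their SD. The log2FC was -0.09 (SE 0.10) in HD against Ctr mice and 0.02 (95% interval from -0.14 to 0.19) in Se_HD against Se_Ctr mice.

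The ratio of Gad1 to Gad2 counts within a library does not depend on the scaling between libraries. It was 1.73 ± 0.198 (SD, n = 5) in Ctr, 1.58 ± 0.256 (SD, n = 5) in LD and 1.34 ± 0.120 (SD, n = 5) in HD mice. In the selenium groups it was 1.63 ± 0.114 (SD, n = 5) in Se_Ctr, 1.61 ± 0.133 (SD, n = 5) in Se_LD and 1.64 ± 0.114 (SD, n = 5) in Se_HD mice. The 5 HD ratios, between 1.17 and 1.45, were all below the 5 Ctr ratios, between 1.53 and 2.04, and below the 5 Se_HD ratios, between 1.53 and 1.82. The difference of Se_HD from HD mice was 0.29 on the log2 scale. That of Se_HD from Se_Ctr mice was 0.01 (exact permutation test, two-sided, p = 0.897, also after adjustment over 8 comparisons). The HD ratios contain the Gad1 values that were known when the gene was chosen, so their distance from the other groups is a description, and the ratio does not tell which of the 2 transcripts moved.

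**Figure D2:**
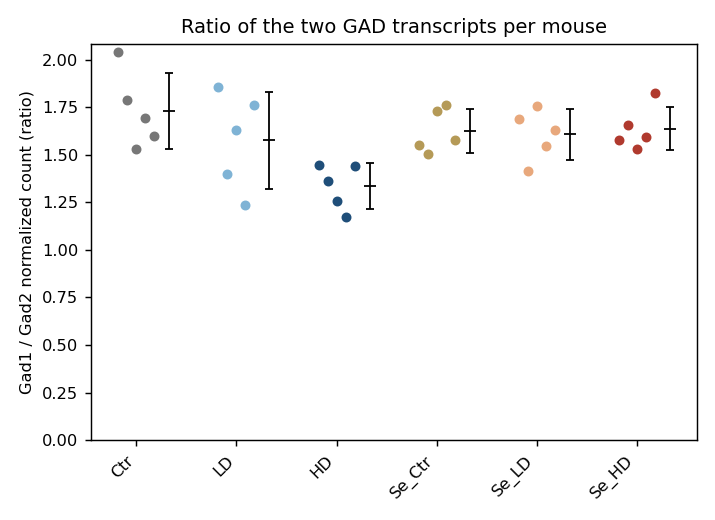
Ratio of Gad1 to Gad2 normalized counts (vertical axis, from 0) in each mouse by group (horizontal axis), with the mean and SD of 5 mice as black mark and bar. HD mice lie between 1.17 and 1.45, below all Ctr and all Se_HD mice.

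Slc32a1 (ENSMUSG00000037771, chromosome 2 from 158436494 to 158441484) had its lowest mean in HD mice, 369 ± 85.2 (SD, n = 5) normalized counts, against 457 ± 117 (SD, n = 5) in Ctr mice. The single values were 615, 444, 361, 531 and 335 in Ctr and 331, 497, 350, 269 and 398 in HD mice. The 2 groups overlapped, and the spread within Ctr mice was larger than the difference of the means. The log2FC was -0.30 (SE 0.19) without selenium and -0.09 (95% interval from -0.38 to 0.21) in Se_HD against Se_Ctr mice. Without HD library 21 the first of these was -0.19.

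Slc6a11 (ENSMUSG00000030307, chromosome 6 from 114081235 to 114199880) spread more among HD mice than any other member did in any group, relative to its mean. Its counts in HD mice were 1458, 2478, 1119, 667 and 1301, against 2293, 1279, 1339, 1332 and 1299 in Ctr mice. The highest value of each group came from a library of high thalamus markers, HD 9 and Ctr 1. The lowest came from HD library 21, which also had the highest Gfap of the 30 libraries, at 32820 normalized counts where the other HD mice had 4080 to 12446, and the highest microglia sum. The log2FC of -0.19 (SE 0.24) became 0.05 without HD library 21 and -0.27 without the libraries of high thalamus markers. In Se_HD against Se_Ctr mice it was 0.01 (95% interval from -0.20 to 0.22).

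Abat (ENSMUSG00000057880, chromosome 16 from 8513522 to 8621661) did not follow the high dose. Its mean was 897 ± 128 (SD, n = 5) normalized counts in HD and 898 ± 94.1 (SD, n = 5) in Ctr mice. The log2FC was -0.01 (SE 0.107). It was 0.09 (95% interval from -0.10 to 0.27) in Se_HD against Se_Ctr mice. The member's only calls were at the low dose with selenium, where Se_LD mice had 965, 1079, 895, 942 and 1179 against 855, 898, 902, 832 and 792 in Se_Ctr mice. Of the Se_LD mice 4 lay above all Se_Ctr mice, and the log2FC was 0.24 (SE 0.087, limma unadjusted p = 0.0135, adjusted p = 0.9998, exact permutation p = 0.0238). The same contrast called 288 (1.46%) of the genes tested.

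Within the Se_LD mice the higher Abat went with thalamus markers, and in the LD, Ctr and HD mice it did not. Libraries 11 and 29 had the highest Abat of the group and thalamus sums of 2671 and 2666, against 836 to 1134 in the other Se_LD mice, and 4 of the 8 thalamus markers were called higher in this contrast. Without the libraries of high thalamus markers the Abat difference was 0.14 and was no longer called. It was also lost without any 1 of Se_Ctr libraries 4, 22 or 28 or of Se_LD libraries 11 or 29, with fold changes down to 0.18. Nor was it called in limma without trend, in 1 fit of all 30 libraries or with sets of 6 library numbers as covariate. Of the other libraries of high thalamus markers, LD 8 (786) and LD 26 (796) had the lowest Abat of the LD mice. Ctr 1 (831) had the lowest of the Ctr mice and HD 9 (901) all but the lowest of the HD mice. Se_Ctr 10 (898) had all but the highest of the Se_Ctr mice, where the highest was 902. The part of thalamus tissue in these values was not tested further. Abat was likewise higher in Se_LD than in LD mice by 0.22 (SE 0.099, limma unadjusted p = 0.0310, adjusted p near 1, where 2.86% of genes were called), and by 0.03 without those libraries. That call was lost without any 1 of LD libraries 8 or 26 or Se_LD libraries 11 or 29. The difference of the low-dose effect between the diets was 0.29 (SE 0.140, limma unadjusted p = 0.0472, adjusted p = 0.998, where 3.75% of genes were called), and 0.14 without those libraries, and it was lost in 9 of 20 settings that left out 1 mouse. Slc6a11 was 0.21 higher in Se_LD than in Se_Ctr mice (limma unadjusted p = 0.0491 in the contrast), with an F test p of 0.0824, and was not called. Its 2 highest Se_LD values, 2042 and 1595, were those of libraries 29 and 11, of high thalamus markers. The highest Se_Ctr value, 1720 in library 10, and the highest LD value, 1786 in library 8, also came from such libraries. The part of thalamus tissue in Slc6a11 was not tested.

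**Figure D3:**
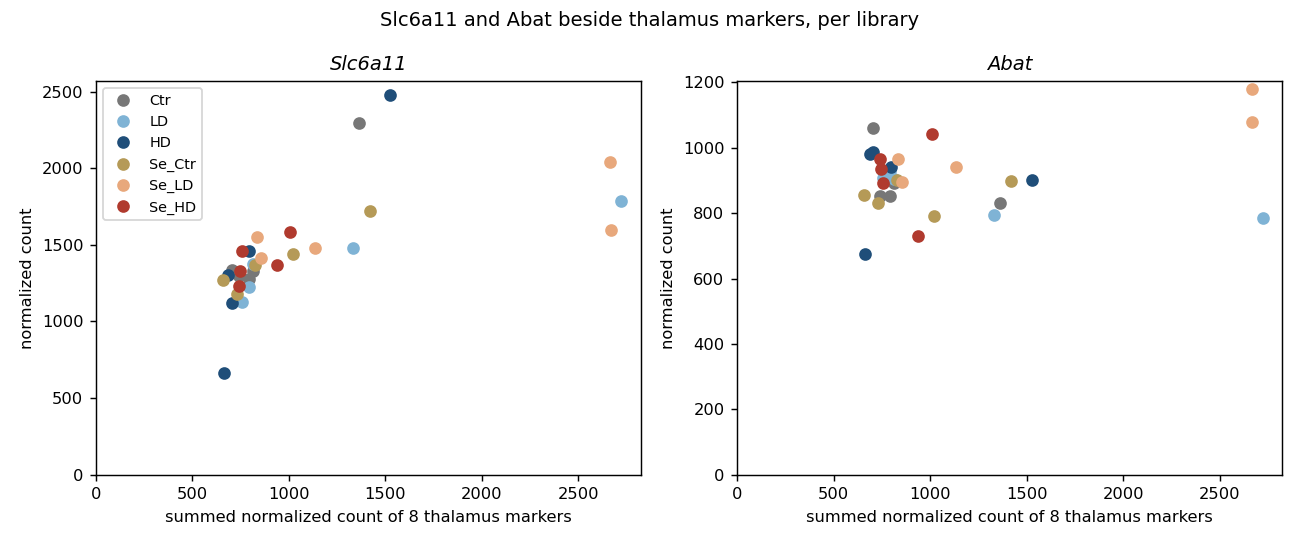
Normalized counts of Slc6a11 (left) and Abat (right) on the vertical axes against the summed normalized count of 8 thalamus markers on the horizontal axes, 1 point per library, coloured by group, all axes from 0. The 2 highest Slc6a11 values, 2478 and 2293, belong to libraries with thalamus sums of 1526 and 1363, and the 2 highest Abat values to Se_LD libraries with sums of 2666 and 2671, while LD library 8, with the highest sum of 2723, has an Abat of 786.

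Pvalb (ENSMUSG00000005716, chromosome 15 from 78021544 to 78036830, minus strand) had the largest fold change of the 8 genes in HD against Ctr mice, and a wide spread. Its counts were 519, 380, 265, 420 and 317 in Ctr mice and 181, 267, 456, 151 and 273 in HD mice. HD libraries 3 and 21 lay below every Ctr mouse, while HD library 15 lay above 4 of the 5. The log2FC was -0.59 (SE 0.22). As a description, Pvalb was past the call rule here with all mice but not without Ctr library 1, HD library 3 or HD library 21. Without HD library 21 the fold change was -0.41. In edgeR and DESeq2 on the recovered reads it was not past the rule.

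Pvalb was the only member called in a contrast of the high dose among mice given selenium. Se_HD mice had 253, 331, 264, 282 and 261 normalized counts, Se_LD mice 349, 312, 353, 315 and 400 and Se_Ctr mice 338, 341, 320, 413 and 228. In Se_HD against Se_LD mice the log2FC was -0.31 (SE 0.120, limma unadjusted p = 0.0158, adjusted p = 0.947, exact permutation p = 0.0238), with 4 of 5 Se_HD mice below all Se_LD mice, where 2.47% of genes were called. This call was lost on leaving out any 1 of 7 mice (Se_LD 5, 17 or 29 or Se_HD 6, 18, 24 or 30) or the libraries of high thalamus markers, with a fold change of -0.29 in the latter. It was also lost in limma without trend, in 1 fit of all 30 libraries, with sets of 6 library numbers as covariate and at a mean of at least 10. In Se_HD against Se_Ctr mice the log2FC was -0.22 (95% interval from -0.47 to 0.03) and the limma unadjusted p 0.0842. Leaving out 1 mouse it ran from -0.34 without Se_Ctr library 28 to -0.13 without Se_Ctr library 22, and it was called only without Se_Ctr library 28 or Se_HD library 12 (-0.28). The interval takes in 0. The difference of the high-dose effect between the diets was 0.37 (SE 0.27) for Pvalb, given as a description. In HD against LD mice, which share the HD libraries by which Pvalb was chosen, the log2FC was -0.55 (SE 0.22), also a description, and Pvalb was not past the call rule without HD library 3 or 21.

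Lhx6 (ENSMUSG00000026890, chromosome 2 from 35937470 to 35960928, minus strand) was the least abundant member. Its means were 132 ± 26.1 (SD, n = 5) in Ctr and 114 ± 33.8 (SD, n = 5) in HD mice, and the HD values reached from 84.1 to 163, around the Ctr values of 92.1 to 151. The log2FC was -0.23 (SE 0.18) without selenium and -0.02 (95% interval from -0.29 to 0.26) with it, and the former was -0.14 without HD library 21. The groups overlapped in all 9 pairs compared.

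Dlx1 (ENSMUSG00000041911, chromosome 2 from 71366170 to 71372038) had 284 ± 39.1 (SD, n = 5) normalized counts in Ctr, 260 ± 33.5 (SD, n = 5) in HD, 313 ± 64.1 (SD, n = 5) in Se_Ctr and 337 ± 74.2 (SD, n = 5) in Se_HD mice. Its log2FC in HD against Ctr mice was -0.13 (SE 0.127) and in Se_HD against Se_Ctr mice 0.10 (95% interval from -0.20 to 0.40). Between Se_HD and HD mice it was 0.36 (SE 0.141), a description, and 4 of 5 Se_HD mice lay above all HD mice. Without HD library 21 the difference from Ctr mice was -0.059 and that from Se_HD mice 0.29. The transcript Dlx1as, on the other strand, overlaps exons of Dlx1 and had a mean of 68.6 normalized counts, and the strand setting used in counting is not given in the sources used here, so reads in the shared bases cannot be told apart. The same holds for Slc32a1 and Gm14205, whose mean was 0.986.

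Across the 8 genes, Gad1 and Pvalb were the 2 past the call rule in HD against Ctr mice, both lower, in the contrast by which the members were chosen. Of the 20031 genes tested 5.09% were called. All 8 fold changes were below 0, with a median of -0.21 against 0.007 for all genes. Without HD library 21, Slc6a11 (0.046) and Abat (0.088) were above 0, as was Abat without Ctr library 13 (0.051). This pattern is part of what was known when the list was made and is not read as support. LD against Ctr mice gave 0 of 8 (1.46% of genes called), with Gad1 nearest to a call at -0.17, a description. With all 30 libraries in 1 fit 1 of 8 was called, and edgeR and DESeq2 called 0. HD against LD mice had 2 of 8 past the call rule, Gad1 and Pvalb (4.49% of genes called), and 0 without the libraries of high thalamus markers. This contrast contains the HD values by which the members were chosen, and nothing is read from its count.

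In the selenium diet, Se_HD against Se_Ctr mice gave 0 of 8 members, where 2.06% of genes were called. Their fold changes lay between -0.22 and 0.10, with 3 below 0 and 5 above, and a median of 0.02. By edgeR and DESeq2 the count was also 0. Se_LD against Se_Ctr gave 1 (Abat) and Se_HD against Se_LD 1 (Pvalb). Se_Ctr against Ctr mice, the effect of selenium without mercury, gave 0 of 8 (4.0% of genes called), with fold changes between -0.20 for Pvalb and 0.13 for Dlx1. Se_HD against HD mice had 2 of 8 past the call rule, Gad1 and Dlx1, both higher, where 8.38% of genes were called and 3.1% called higher, and all 8 fold changes were above 0 in limma. The sign turned for Slc6a11 in edgeR (-0.013) and DESeq2 (-0.010), for Slc6a11 (-0.12), Abat (-0.068) and Pvalb (-0.0083) without HD library 21, and for Abat (-0.021) without Se_HD library 18. This contrast shares the HD mice with HD against Ctr, so the 2 sets of signs are not separate evidence. Without the libraries of high thalamus markers 4 of 8 were past the rule. Dlx1 was not past it without HD library 21 (0.29) or without Se_HD library 18 (0.25).

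**Figure D4:**
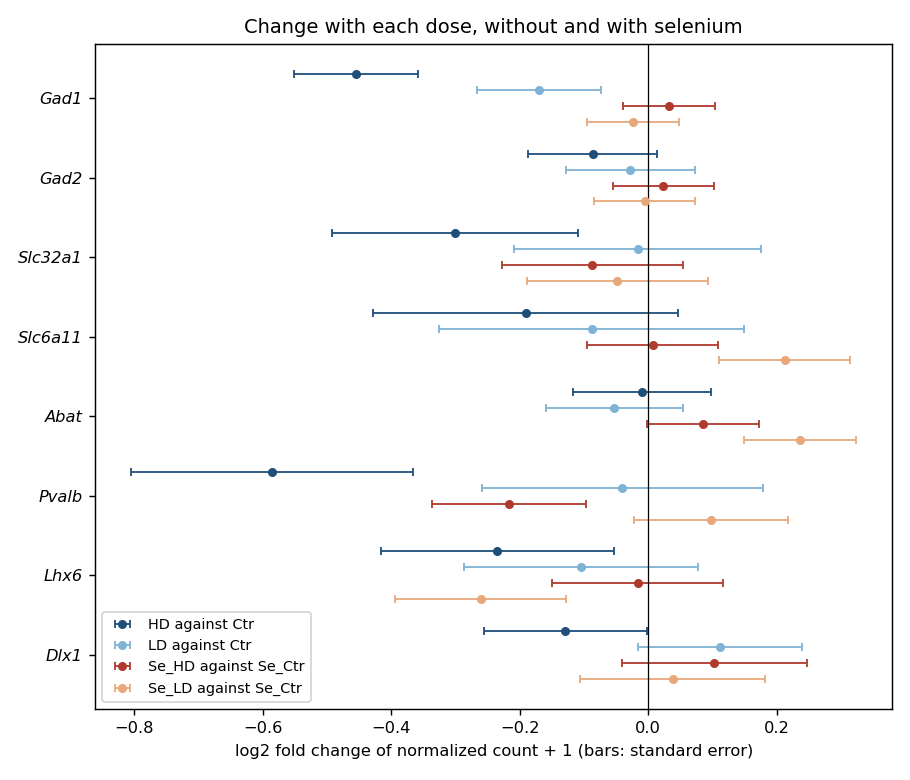
Log2 fold change of each gene (horizontal axis, on the log2 scale of normalized count + 1, bars are limma standard errors) for both doses against the control of the same diet. HD against Ctr (dark blue) lies at -0.45 for Gad1 and -0.59 for Pvalb, while Se_HD against Se_Ctr (red) lies at 0.03 and -0.22.

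Levels between genes can be compared only per length of exon, taken here over all annotated exons of a gene merged. This length was 7639 bases for Gad1 and 5876 for Gad2, while their longest coding transcripts have 3355 and 5744 bases. The order of the genes and the distance between the GAD transcripts depend on the length used. As means over 30 libraries of the normalized count per kilobase of exon, Slc6a11 had 357, Gad1 330, Pvalb 314, Gad2 271, Slc32a1 156, Abat 117, Dlx1 56.2 and Lhx6 25.7. In HD mice the levels of the GAD transcripts lay closer, with 263 ± 21.5 (SD, n = 5) per kilobase for Gad1 and 257 ± 27.4 (SD, n = 5) for Gad2, against 360 ± 25.8 (SD, n = 5) and 272 ± 26.6 (SD, n = 5) in Ctr mice. Along the order of the 6 group means, the gap between LD and HD mice in Gad1 was the only one between neighbours, in any of the 8 genes, that was larger than the larger SD.

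How the genes varied among mice of the same group was examined after removing the group means, over 30 libraries and 28 pairs. Of these pairs 23 had a Pearson r above 0, with a median of 0.22. The pair Slc32a1 and Dlx1 alone passed adjustment over the 28 (r = 0.73, permutation p = 8.0e-05, adjusted p = 0.00224; Spearman rho = 0.70, permutation p = 0.00013). Without the 2 libraries farthest from the median of Slc32a1, r was 0.68, and it was 0.63 in the 15 libraries without and 0.89 in the 15 with selenium. Gad1 and Gad2 had r = 0.35 (permutation p = 0.0862, adjusted p = 0.395; rho = 0.38). Pvalb and Lhx6 had r = 0.49 (permutation p = 0.0503, adjusted p = 0.281, rho = 0.27). Without the 2 farthest libraries this r fell to 0.22, so the value rests on them.

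Among 9273 genes whose mean normalized count reached 100, those most like Gad1 across the 30 libraries, again with group means removed, were Gng4 (r = 0.73), Prune (0.67), Gltpd1 (0.66), Mtx2 (0.65) and Eif1 (0.65). Those most like Pvalb were Cplx1 (r = 0.85), Mgst3 (0.83), Sncb (0.83), Kcnab3 (0.82) and 1700001L19Rik (0.82). Those most like Slc32a1 were 2810428I15Rik (r = 0.88), Tmem85 (0.86), Fbl (0.85), Clpp (0.84) and Nrxn2 (0.83). The longest coding transcript of Slc32a1 is 61.9% GC, above 98.4% of these genes, where Gad1 has 48.4%, Gad2 44.1% and Pvalb 49.3%. Those of the 5 genes most like Slc32a1 are, in the order given, 62.0%, 51.1%, 56.4%, 56.7% and 62.4% GC. Those of the 5 most like Pvalb lie between 46.3% for 1700001L19Rik and 61.4% for Sncb, and of the 5 most like Gad1 between 43.7% for Mtx2 and 51.0% for Prune. The part of base composition in these likenesses was not tested.

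Genes associated with fast-spiking parvalbumin cells were counted around Pvalb, from a list of 19 that was drawn up with results for Vamp1 known. In HD against Ctr mice 7 of the 19 were called lower and 0 higher, where 1.73% of all genes were called lower, and the median log2FC was -0.33. None had an adjusted p under 0.05. Syt2, a fast calcium sensor of inhibitory terminals, had 657, 405, 303, 583 and 477 normalized counts in Ctr and 204, 168, 371, 120 and 264 in HD mice. Its log2FC was -1.15 (SE 0.24, limma adjusted p = 0.0658). Vamp1, a vesicle fusion protein, is 1 of the 7, and as its result was known its values and its place in the count are a description. All 5 HD mice (776 to 1018) lay below all 5 Ctr mice (1176 to 1738), a pattern of 0.734% of genes. The log2FC of Vamp1 was -0.50 (SE 0.108). The other 5 called lower were Kcnab3 (-0.74), Pthlh (-0.75), Kcns3 (-0.51), Ank1 (-0.44) and Cplx1 (-0.31), of which Cplx1 and Kcns3 were not called without the libraries of high thalamus markers. The call of Cplx1 was also lost without any 1 of Ctr 1 or 19 or HD 9 or 21 (-0.17 without HD 21), that of Kcns3 without any 1 of Ctr 1, 7 or 19 or HD 3 or 9, and that of Pthlh without HD 3 or 21. The potassium channel genes Kcnc1 and Kcnc2 of the fast-spiking phenotype had -0.29 and -0.24 and were not called.

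In Se_HD against Se_Ctr mice 1 of these 19 was called, Vamp1, with all 5 mice below all Se_Ctr mice, a pattern of 0.32% of genes (log2FC -0.25, SE 0.082, limma adjusted p = 0.9996, exact permutation p = 0.00794), where 0.777% of genes were called lower. The median of the list was -0.09. Syt2 had -0.24 (95% interval from -0.61 to 0.12). The difference of the high-dose effect between the diets was called for 4 of the 19, Syt2 (0.91), Kcnab3 (0.65), Erbb4 (0.48) and Scn1a (0.35), with adjusted p-values of at least 0.832, and 4.77% of all genes were called. Without HD library 21 the count of called lower in HD against Ctr mice was 5, without the libraries of high thalamus markers it was 5, and without HD library 15, the mouse with the highest Pvalb of its group, it was 11.

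**Figure D5:**
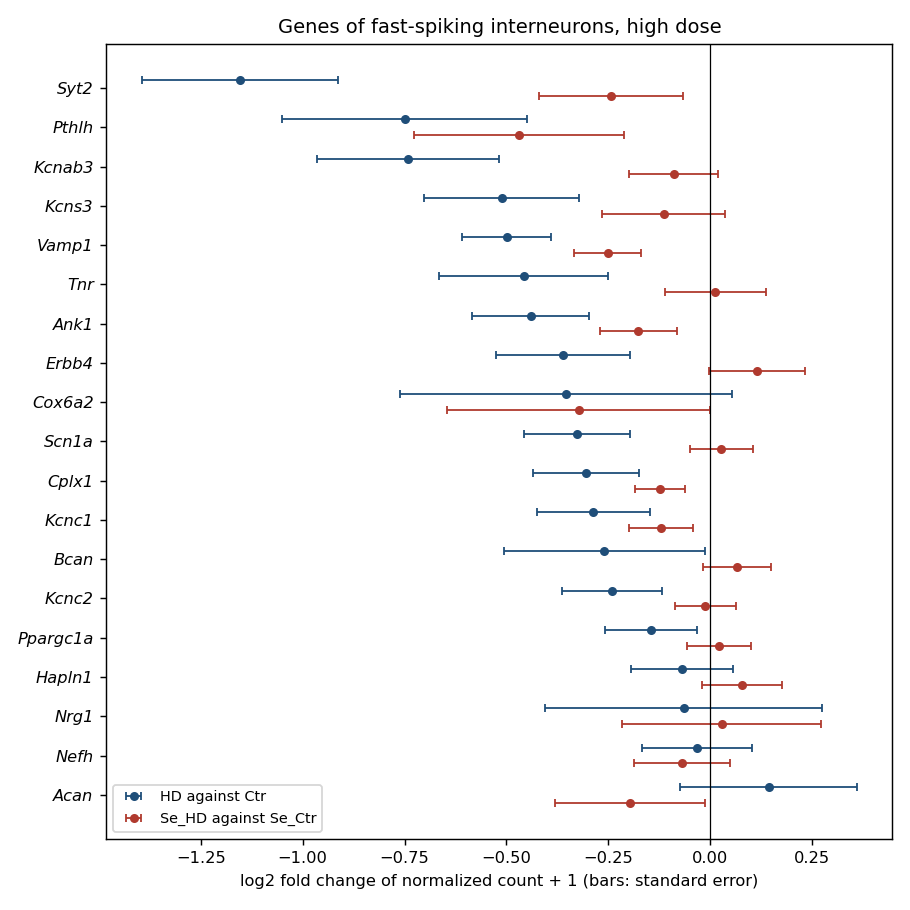
Log2 fold change (horizontal axis, log2 of normalized count + 1, bars are limma standard errors) of 19 genes associated with parvalbumin cells for the high dose without (blue) and with selenium (red), ordered by the former. Of the blue points 18 lie below 0, Syt2 lowest at -1.15, and of the red points 12 do.

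On the receiving side, 3 of 19 genes of GABA receptors and the inhibitory postsynapse were called lower in HD mice and 0 higher, where 1.73% of all genes were called lower. Gabrd, which encodes the delta subunit of extrasynaptic receptors, had 175, 153, 116, 138 and 119 normalized counts in Ctr and 73.9, 147, 75.3, 19.6 and 92.5 in HD mice, a log2FC of -1.004 (SE 0.34) that became -0.57 without HD library 21. In Se_HD against Se_Ctr mice Gabrd alone was called, at -0.31, a call lost without Se_Ctr library 22, without Se_HD library 6 or 18, or without the libraries of high thalamus markers. Of 13 other genes of GABA metabolism and transport, 0 were called in HD against Ctr mice by limma with both conditions, and 1 in Se_HD against Se_Ctr mice, the betaine and GABA transporter gene Slc6a12, at 1.37 (SE 0.45, limma adjusted p = 0.9996). The summed count of 8 choroid plexus markers had medians of 28774 in Se_HD (9442 to 34972) and 14274 in Se_Ctr mice (6257 to 21309), and its part in the Slc6a12 value was not tested.

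Among 22 markers of interneuron subtypes, 2 were called lower in HD mice, Nxph1 (-0.38) and Lamp5 (-0.59), against 1.73% of all genes, and the median was -0.10. The call of Nxph1 was lost without HD library 3. The call of Lamp5 was lost without the libraries of high thalamus markers and without any 1 of Ctr libraries 1 or 19 or HD libraries 3 or 21, with a fold change of -0.33 without HD library 21. Of 15 interneuron transcription factors 1 was lower, Satb1 (-0.54, limma adjusted p = 0.171), and 1 higher, Maf (0.33), a call lost without the libraries of high thalamus markers and without any 1 of Ctr library 7 or HD libraries 15 or 21. Maf was also higher in Se_HD mice, whose 5 values of 262 to 296 normalized counts lay above the 5 Se_Ctr values of 206 to 232, a pattern of 0.478% of genes (log2FC 0.34, SE 0.068, limma adjusted p = 0.355). Maf is expressed in macrophages as well as in interneurons.

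Markers of other cells moved with the same contrast. Their lists were drawn up with earlier results of these data known, and their counts are a description. All 10 microglia markers were called higher in HD mice, where 3.36% of genes were, 5 of them at an adjusted p under 0.05, where 0.13% of genes were, and their summed count was 3317 to 7551 in HD against 2607 to 2821 in Ctr mice. Of 10 astrocyte markers 3 were called higher, Gfap, Aqp4 and Aldh1l1, with sums of 71300 to 105677 against 59066 to 68756. Of 10 excitatory neuron markers 2 were called lower, among them the cortical gene Tbr1 (-0.64), and of 10 pan-neuronal markers 0, whose sums of 66409 to 100121 in HD mice lay around those of Ctr mice, 78495 to 92278. In Se_HD against Se_Ctr mice 0 microglia markers were called, and Gfap was higher by 0.51. HD library 21, with the highest microglia sum, had the lowest Pvalb, Syt2 and Gabrd of the HD mice but not the lowest Gad1, which was 2018 there and 1848 in library 3. The 8 choroid plexus markers had a median sum of 27409 in HD (7065 to 29563) and 10997 in Ctr mice (831 to 31412), with all 8 fold changes above 0 and 0 called. The part of these other cells in the lower Gad1 and Pvalb was not tested.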

How the data were processed

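RNA of 30 mouse hippocampi was sequenced as single-end reads of 75 bases from stranded mRNA libraries made of 90 ng RNA. The authors trimmed the reads with Trim Galore 0.4.2, mapped them with HISAT2 to NCBIM37, counted them with featureCounts and divided the counts by DESeq2 size factors, so the deposited values are a signal in normalized counts and not raw reads. Whole reads were recovered for 100% of values within 0.02 reads.

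The log2 of normalized count + 1 was fitted with limma 3.58.1 (R 4.3.3) with a variance trend, over the 15 libraries of a diet, or over all 30 for selenium contrasts and differences between diets, where the contrast p alone was used. A gene was tested where its normalized counts summed to 10 or more over the fit, and p-values were adjusted across these genes by the Benjamini-Hochberg method. Single genes and ratios had exact permutation tests (two-sided), and correlations permutation tests with 100000 resamples. The members and the gene lists were chosen with earlier results of these data known. Named are the 8 members, of each list the genes with an adjusted p under 0.05 and those of lowest p up to 4 in HD against Ctr and in Se_HD against Se_Ctr mice, and the 5 genes most like Gad1, Slc32a1 and Pvalb; other genes were named after their values were seen. Some genes that the rule names are not reported here. Lhx8 was not matched, and Lamp5, Ndnf and Map2 were matched by synonym. On simulated data with 200 genes changed by 0.5 in HD, limma recovered 89 of them among 19801 tested for HD against Ctr at an adjusted p under 0.05. Alternatives were other pseudocounts (0.1, 10), a filter at a mean of 10, or none, other scalings, limma without trend, 1 fit of all libraries, sets of 6 library numbers, edgeR 4.0.16 and DESeq2 1.42.0 on recovered reads, and leaving out each mouse. Leaving out libraries of high thalamus markers was chosen after seeing the data. Tables were handled with pandas 2.3.3 and drawn with matplotlib 3.10.9.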

Additional observations from a re-analysis of the deposited data

Results flagged for a closer look

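Single mice stood apart within their group in 6 of 54 sets of 5 values (8 genes and the Gad1 to Gad2 ratio in 6 groups), where chance gives 2.7. The measure is the gap of the end value to its nearest neighbour divided by the range, above 0.71. Slc6a11 in Ctr library 1 was highest with 2293 normalized counts where the others had 1279 to 1339 (ratio 0.940). Slc6a11 in Se_LD library 29 was highest with 2042 against 1417 to 1595 (0.715). Both libraries had high thalamus marker sums. Gad1 in LD library 20 was lowest with 1978 against 2494 to 2674 (0.742). Slc32a1 in Se_HD library 18 was highest with 616 against 348 to 425 (0.712). Abat in Ctr library 13 was highest with 1062 against 831 to 894 (0.727), and in HD library 21 lowest with 677 against 901 to 986 (0.725).

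The low-dose effect on Abat differed between the diets by 0.29 on the log2 scale (limma interaction contrast, unadjusted p = 0.0472, adjusted p = 0.998), and by 0.14 without the libraries of high thalamus markers.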

How the results depend on the processing

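The directions of Gad1 in HD against Ctr and in Se_HD against HD mice were the same in all settings run. Of the other single-gene values under alternatives, 890 kept direction and side of the call rule, 102 fell out of it, 6 came into it and 21 changed sign. Of the members' untested values in HD against Ctr and the difference of the high-dose effect, 189 kept their sign and 3 did not. The cause of the changes was not tested. Few reads limit Lhx6, and calls at an unadjusted p limit all member counts. The labels give no replicate numbers that groups share. Library numbers fall into sets of 6 consecutive ones with 1 mouse of each group, which no label calls a batch or a pairing, and the fit with these sets as covariate has its values below.

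Members called in HD against Ctr were 2, and 1 in limma without trend, edgeR, DESeq2 or without the libraries of high thalamus markers. In HD against LD the 2 became 1 in the first 3 of these and 0 without those libraries. Se_LD against Se_Ctr gave 0 in place of 1 without trend, with all 30 libraries in 1 fit, with the set of library numbers as covariate or without those libraries, and 2 by the contrast p alone. Se_HD against Se_LD gave 0 in place of 1 in the same 4 settings and with a mean of at least 10. LD against Ctr gave 1 in place of 0 in 1 fit of all libraries. Without the libraries of high thalamus markers Se_LD against LD gave 0 in place of 1, Se_HD against HD 4 in place of 2, and the difference of the low-dose effect 0 in place of 1, as it did without trend. Leaving out 1 mouse gave 1 to 2 members for HD against Ctr, HD against LD and the difference of the high-dose effect, 0 to 1 for the difference of the low-dose effect, Se_LD against LD and Se_HD against Se_Ctr, 0 to 3 for Se_LD against Se_Ctr and Se_HD against Se_LD, and 1 to 4 for Se_HD against HD.

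Of the 88 genes of the 5 pathway lists, 14 were called in HD against Ctr, where 5.09% of all genes were, 22 by the contrast p alone, 10 without the libraries of high thalamus markers and 10 to 20 on leaving out 1 mouse. In LD against Ctr 1 was called, and 0 with a pseudocount of 10, a mean of at least 10, no trend, 1 fit of all libraries or without the libraries of high thalamus markers. In Se_HD against Se_Ctr 4 were called, and 2 in 1 fit of all libraries. In Se_LD against Se_Ctr 0 were called, 2 with the set covariate and 1 in edgeR, DESeq2 or by the contrast p alone. Leaving out 1 mouse gave 0 to 4, 3 to 8 and 0 to 5 for the last 3 contrasts, 5 to 11 parvalbumin cell genes lower in HD mice, and 4 to 9 postsynaptic genes higher in Se_HD than in HD mice.

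Leaving out 1 mouse, HD against Ctr was -0.43 to 0.046 for Slc6a11, -0.048 to 0.088 for Abat, -0.13 to -0.028 for Gad2, -0.42 to -0.18 for Slc32a1, -0.81 to -0.41 for Pvalb, -0.38 to -0.14 for Lhx6 and -0.22 to -0.059 for Dlx1. Slc6a11 in Se_HD against HD was -0.013 in edgeR and -0.010 in DESeq2, and -0.12 to 0.35 on leaving out 1 mouse. Slc6a11 in Se_HD against Se_Ctr was -0.00069 in DESeq2, and Slc32a1 there 0.017 without the libraries of high thalamus markers. Leaving out 1 mouse, the ranges in Se_HD against Se_Ctr were -0.051 to 0.085 for Slc6a11, -0.22 to 0.017 for Slc32a1, -0.013 to 0.072 for Gad1, -0.046 to 0.055 for Gad2, -0.079 to 0.043 for Lhx6, -0.34 to -0.13 for Pvalb and -0.0062 to 0.22 for Dlx1, and in Se_HD against HD -0.068 to 0.11 for Abat and -0.0083 to 0.39 for Pvalb.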

Other observations

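Genes of the inhibitory postsynapse were higher in Se_HD than in HD mice for 7 of 19 listed and lower for 0, by limma's unadjusted p in the contrast, where 3.1% of all genes were called higher. Among them were the receptor subunit genes Gabra5 (0.44 on the log2 scale) and Gabrd (0.72), the chloride transporter gene Slc12a5 (0.25) and the scaffold gene Gphn (0.17). None had an adjusted p under 0.05. Without HD library 21 Gabrd was 0.28 and Slc12a5 0.11 and both calls were lost, and the call of Gphn was lost in 5 of 10 settings that left out 1 mouse. The count of 7 was 4 without HD library 9, HD library 21 or Se_HD library 12. The contrast shares the HD mice with HD against Ctr, and 9 of 10 microglia markers were called lower in it; their part in these values was not tested.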
